A study of Mus musculus with 12 samples.

Results

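Transcripts of 37 glycolysis and hypoxia response genes were followed in mouse pancreatic tumor cells lacking Dkk3, with and without the recombinant protein (rDKK3). The genes were chosen by symbol from the deposited count table, with earlier results of these data known. They occupy 38 of 57186 gene rows because Aldoa is listed under 2 gene identifiers. All 38 rows passed the filter on low counts. The cells were DDKC lines, isolated from pancreatic tumors of Dkk3-/- mice that also carry Ptf1a Cre/+. The Dkk3 knockout allele is present in every tissue of these mice, and the paper describes the Ptf1a Cre as pancreas-specific. DKK3 is a secreted glycoprotein of the Dickkopf family, and rDKK3 was added to ask how Dkk3-null tumor cells respond to the protein from outside. The groups compared were untreated and rDKK3-treated cells of 3 lines, DDKC_9750, DDKC_9790 and DDKC_9804, with 2 libraries for each line and condition. All were grown in DMEM with serum and antibiotics, and all carry the Dkk3 knockout allele. The paper describes this allele as lacking exon 2, with the signal for secretion, so no group is expected to secrete its own DKK3. It also reports that an intracellular form, Dkk3b, was still expressed in knockout acini. Each line stands for 1 isolate, and whether each came from its own mouse is not stated. The dose and duration of rDKK3 for these RNA samples, the oxygen tension during culture and the age of the donor mice are not given in the sources used here.

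Glycolysis splits glucose into pyruvate through a chain of enzymes that starts with uptake and phosphorylation and ends with pyruvate kinase, after which lactate dehydrogenase can reduce pyruvate to lactate for export. When oxygen is scarce, prolyl hydroxylases stop marking the alpha subunits of hypoxia-inducible factor (HIF) for destruction, and HIF then binds DNA elements with an ACGTG or GCGTG core and raises the transcription of most glycolytic enzymes together with genes for angiogenesis, pH control and mitochondrial turnover. Pancreatic ductal adenocarcinoma is known for poor perfusion and for high glucose uptake. HIF alpha subunits are controlled mainly at the protein level, which RNA counts do not measure.

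The RefSeq promoter table, whose windows run from 250 bases before to 50 bases after a gene start on GRCm38.p6, held 34 of the 37 genes in 52 windows. Bnip3l, Epas1 and Ndrg1 had no entry. The HIF core was searched as ACGTG and GCGTG on both strands, where CACGTG holds an ACGTG on each strand and counts on both. It was found in 41 of the 52 windows (78.85%) and for 32 of the 34 genes (94.12%). Of all 32851 windows in the table, 43.77% held the core, as did 46.73% of the 27025 genes. A match describes the letters in the window and does not show binding. The windows below are those of 4 genes that were lower with rDKK3 in every line (Aldoc, Ankrd37, Car9 and Ldha) and of 2 that were higher in every line (Hif1a and Pfkfb4). For Aldoc and Ldha the table held a second window each, with 1 and 2 matches, and the one with more matches is shown. The windows are printed 5′ to 3′ on the strand of the gene, with each match to the core on either strand in capitals. The windows are Aldoc, chr11:78322823-78323122, plus strand; Ankrd37, chr8:45999801-46000100, minus strand; Car9, chr4:43506776-43507075, plus strand; Ldha, chr7:46845554-46845853, plus strand; Hif1a, chr12:73907617-73907916, plus strand; and Pfkfb4, chr9:108991652-108991951, plus strand.
Aldoc: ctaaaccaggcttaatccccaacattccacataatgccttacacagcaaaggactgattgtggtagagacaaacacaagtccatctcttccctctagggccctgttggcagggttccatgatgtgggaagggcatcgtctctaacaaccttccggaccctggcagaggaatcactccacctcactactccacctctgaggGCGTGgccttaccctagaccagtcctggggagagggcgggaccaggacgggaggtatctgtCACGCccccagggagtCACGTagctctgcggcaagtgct
Ankrd37: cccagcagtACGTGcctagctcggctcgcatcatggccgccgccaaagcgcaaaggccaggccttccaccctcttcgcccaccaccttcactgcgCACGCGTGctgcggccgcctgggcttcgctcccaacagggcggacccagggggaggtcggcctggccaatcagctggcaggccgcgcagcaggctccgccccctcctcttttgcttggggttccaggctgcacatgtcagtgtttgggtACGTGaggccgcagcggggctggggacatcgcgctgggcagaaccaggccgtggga
Car9: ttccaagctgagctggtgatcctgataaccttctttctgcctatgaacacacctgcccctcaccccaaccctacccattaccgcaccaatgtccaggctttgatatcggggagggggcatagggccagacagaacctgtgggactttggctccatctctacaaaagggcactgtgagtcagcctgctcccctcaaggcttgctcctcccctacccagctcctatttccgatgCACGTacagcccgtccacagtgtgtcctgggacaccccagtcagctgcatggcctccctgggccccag
Ldha: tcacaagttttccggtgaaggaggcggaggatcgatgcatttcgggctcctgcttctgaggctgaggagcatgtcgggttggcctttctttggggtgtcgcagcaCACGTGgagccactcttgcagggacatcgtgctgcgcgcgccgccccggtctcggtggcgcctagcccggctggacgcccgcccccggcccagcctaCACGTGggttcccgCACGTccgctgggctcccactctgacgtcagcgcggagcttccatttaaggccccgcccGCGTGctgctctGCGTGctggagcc
Hif1a: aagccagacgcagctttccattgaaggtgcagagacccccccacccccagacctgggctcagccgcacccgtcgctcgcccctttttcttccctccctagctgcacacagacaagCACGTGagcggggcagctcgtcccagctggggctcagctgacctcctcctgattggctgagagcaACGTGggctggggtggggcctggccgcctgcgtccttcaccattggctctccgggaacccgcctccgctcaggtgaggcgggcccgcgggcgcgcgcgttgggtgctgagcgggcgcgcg
Pfkfb4: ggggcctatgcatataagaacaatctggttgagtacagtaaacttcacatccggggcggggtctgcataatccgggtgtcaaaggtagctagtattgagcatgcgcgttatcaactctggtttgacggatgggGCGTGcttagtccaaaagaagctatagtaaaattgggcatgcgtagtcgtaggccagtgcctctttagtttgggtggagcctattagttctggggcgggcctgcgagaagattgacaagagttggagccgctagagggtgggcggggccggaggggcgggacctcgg

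The Ldha window shown held 7 matches, 5 to ACGTG and 2 to GCGTG, and that of Ankrd37 held 4. The windows shown of Aldoc and Hif1a held 3 each, and those of Car9 and Pfkfb4 held 1 each.

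The 12 libraries held 3822987 to 24541083 counts each. The 2 libraries of a line and condition differed by less than sampling noise once a shift between lower and higher library numbers was allowed for (deviance per degree of freedom 0.769 over 12979 genes, against 6.46 without that shift), and nothing in the labels says they came from separate cultures. They were therefore summed and counted as 1 sample, which left 6 samples of 9914553 to 36140718 counts and 3 lines per condition. Levels below are counts of the summed samples scaled to library size with TMM factors (CPM). A count of 3, taken as the floor, equals 0.0856 to 0.291 CPM. Dkk3, the targeted gene, had 0 counts in 11 libraries and 1 count in a treated library of DDKC_9750. These are counts of the whole gene, and the part of the knockout allele in them was not tested. The ductal keratins Krt8, Krt18 and Krt19 were each at 784 CPM or more in every sample, but Epcam was at 2.03, 0.946 and 0.799 CPM untreated and 2.04, 0.919 and 0.411 CPM treated. Listed markers of fibroblasts (4 of 8), leukocytes (4 of 6), endothelium (3 of 4) and acinar cells (5 of 6) stayed under 1 CPM in every sample, among them Ptprc, Dcn, Lum, Pecam1 and Cpa1. Of the others, Cd68 was higher with rDKK3 in every line (2.03, 23.2 and 2.65 CPM untreated and 3.01, 38.1 and 6.73 CPM treated) and Pdpn was higher in DDKC_9750 (0.266 and 4.27 CPM), while Kdr, Col1a1, Cela1 and Csf1r exceeded 10 CPM in at least 1 sample and Pdgfra and Pdgfrb reached 6.98 and 4.34 CPM. The summed level of the 8 ductal markers was 5332 to 9811 CPM untreated and 4247 to 8111 CPM with rDKK3, and that of the 5 mesenchymal markers 7628 to 20698 and 7542 to 22281 CPM. Within these lists Krt7, Krt8, Krt18, Krt19 and Vim were each lower with rDKK3 in all 3 lines, at log2 fold changes of -0.84 ± 0.24 (SE), -0.46 ± 0.13 (SE), -0.35 ± 0.17 (SE), -0.55 ± 0.12 (SE) and -0.49 ± 0.14 (SE), beside a median of -0.48 over the 38 rows of the glycolysis and hypoxia genes. Sox9 (0.34 ± 0.11 (SE)) and Muc1 (0.45 ± 0.19 (SE)) of the ductal list and Fn1 (0.21 ± 0.12 (SE)) and Snai2 (0.81 ± 0.35 (SE)) of the mesenchymal list were higher in all 3 lines. Epcam, Cdh1, Cdh2 and Zeb1 had different signs between lines, and none of these 13 markers passed the test by edgeR (adjusted p 0.578 to 0.948). Treated samples were shallower than untreated ones in every line, and their mitochondrial share of counts was higher, at 1.22%, 1.38% and 1.08% in DDKC_9750, DDKC_9790 and DDKC_9804 against 0.787%, 0.702% and 0.778% untreated. The part of mitochondrial share and of these markers in the results that follow was not tested.

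With rDKK3 most of the glycolytic and hypoxia response genes were at lower levels, while Hif1a, Vegfa, Hk2 and Pfkfb4 were at higher levels in all 3 lines. The genes together took 1.73%, 2.65% and 1.71% of all counts in untreated DDKC_9750, DDKC_9790 and DDKC_9804, and 1.57%, 1.83% and 1.08% with rDKK3 (the widest 95% Wilson interval, of treated DDKC_9750, is 1.56% to 1.58% and covers counting error only). In bulk samples such as these, fewer cells of a type and less RNA per cell cannot be told apart. The median log2 fold change over the 38 rows was -0.48, beside -0.01 over all 15165 genes tested, and 32 rows were lower and 6 higher (50.8% of all genes were lower). The median in single lines was -0.09 in DDKC_9750, -0.55 in DDKC_9790 and -0.75 in DDKC_9804, with 22, 32 and 34 of 38 rows lower. Over the lines it was -0.28 when DDKC_9804 was left out and -0.47 when all samples were thinned to the depth of the shallowest.

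None of these differences passed the test across the 3 lines. With edgeR (quasi-likelihood test, p-values adjusted by Benjamini-Hochberg), 0 of the 38 rows were called at an adjusted p under 0.05 in either direction, where 0.00659% of all genes were called higher (1 gene, Lcn2) and 0% lower. The adjusted p-values of the 38 rows ran from 0.578 to 0.954. At an unadjusted p under 0.05, 16 rows were lower (42.1%) and 3 higher (7.89%), beside 5.16% of all genes lower and 3.38% higher. DESeq2 on the same sums called 5 rows lower (Aldoc, Car9, Pgk1, Pkm and Eno1) and Hif1a higher, beside 0.527% and 0.232% of the genes it adjusted. With no filter on low counts edgeR called 4 rows lower (Aldoc, Car9, Ankrd37 and Pgk1), beside 0.164% of all genes. When the 12 libraries entered as separate samples, 19 rows (50%) were called lower and 4 (10.5%) higher, against 10.1% and 7.95% of all genes. Those adjusted p-values count the library pairs as replicates of the treatment, which the pair check above does not bear out, and they are given below only where named as the 12-library fit. Over all alternatives the adjusted p of each gene called in that fit was lowest in a fit of 12 separate libraries, either this one or the one with a term for the library number added, and highest, at 0.999972, with no block for the line. The genes called in that fit were Slc2a1, Gpi1, Pfkm, Pfkp, Aldoa, Aldoc, Tpi1, Pkm, Ldha, Slc16a3, Pdk1, Egln1, Adm, Car9, Bnip3, Bnip3l, P4ha1, Ankrd37 and Mxi1 (lower) and Hk2, Pfkfb4, Hif1a and Vegfa (higher). The plot of differences by line shows where each gene lay.

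**Figure D1:**
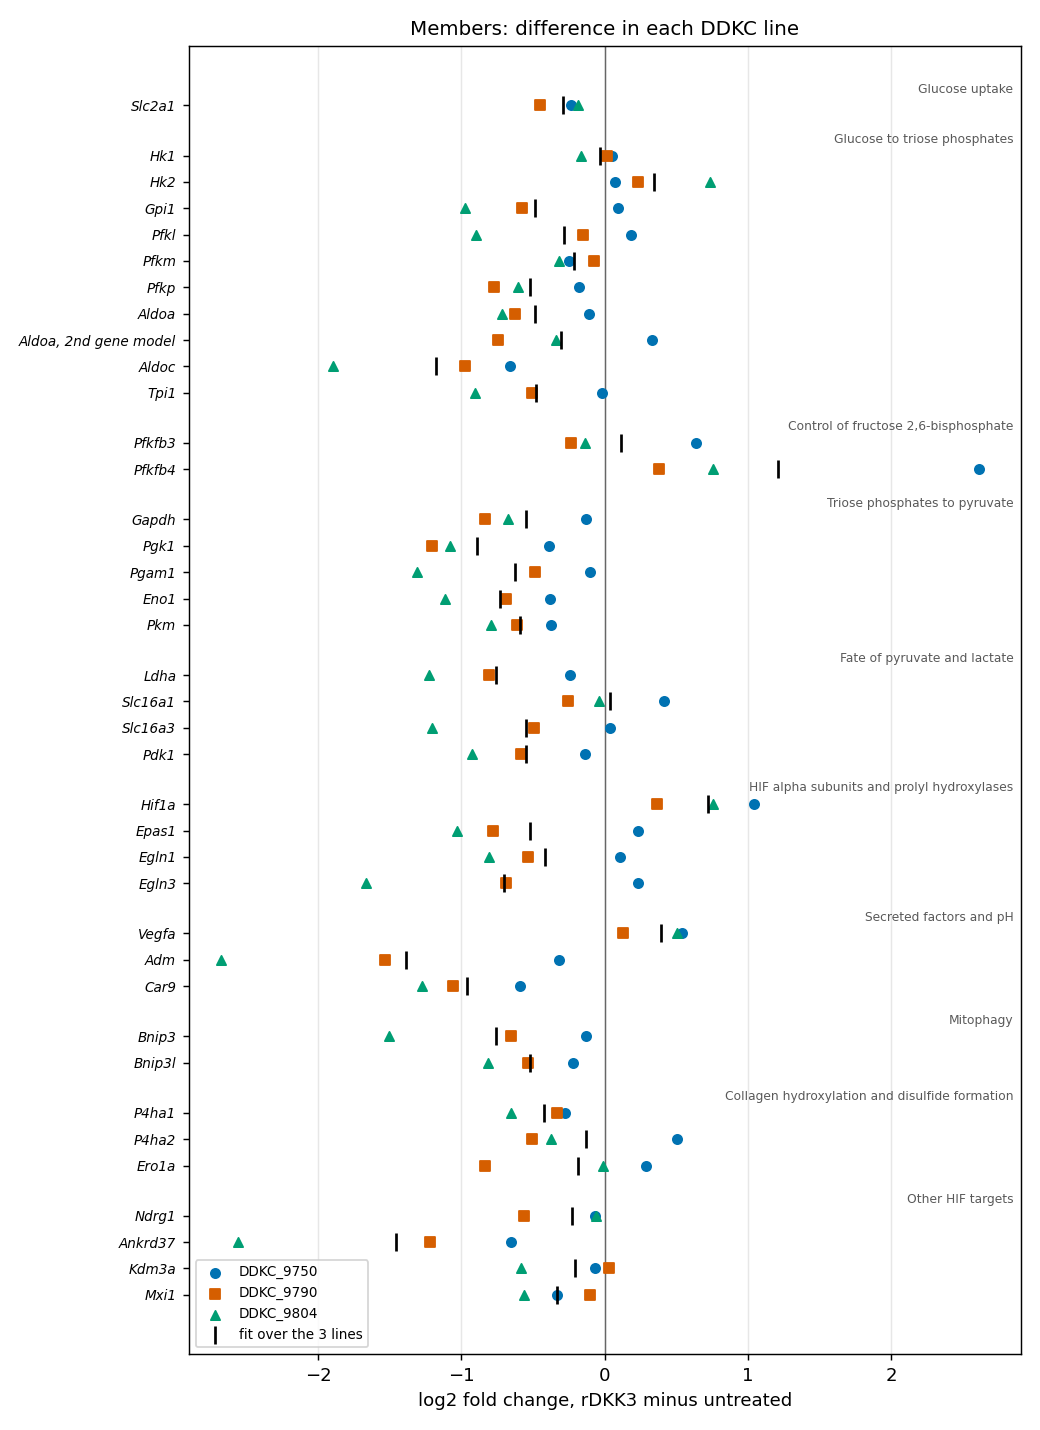
Log2 fold change (x axis, rDKK3 minus untreated) of the 38 gene rows, grouped by role, in DDKC_9750 (circles), DDKC_9790 (squares) and DDKC_9804 (triangles), with the fit over the 3 lines as a black bar. Of the 38 rows, 21 lay left of 0 in all 3 lines and 4 lay right of 0 in all 3.

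Direction was shared across lines more often downward than upward. The 21 rows lower in all 3 lines were 55.3% of the 38, beside 18.4% of all genes, and the 4 higher in all 3 lines were 10.5%, beside 14.2%. The members were chosen with earlier results of these data known, so these shares are a description and not a test. When each line was set against the noise between its own library pairs, rows called lower numbered 19 in DDKC_9750, 31 in DDKC_9790 and 29 in DDKC_9804, and rows called higher 11, 4 and 4. The background for these calls is broad. In DDKC_9750 23.6% of all genes were called lower and 22% higher, in DDKC_9790 21.3% and 18.7%, and in DDKC_9804 30.6% and 24.4%. In 8 of the 38 rows (21.1%) at least 1 line was called higher and at least 1 lower with both library pairs agreeing, near the 20% of all genes that were. These counts set each line against library noise and do not test the treatment.

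Slc2a1 encodes GLUT1, the widespread facilitative carrier for glucose uptake. Its level was 183, 301 and 243 CPM in untreated DDKC_9750, DDKC_9790 and DDKC_9804 and 156, 219.6 and 214 CPM in the treated samples of the same lines. Every treated sample was below its untreated partner, but the ranges of the groups overlapped. The log2 fold change was -0.29 ± 0.12 (SE), with an adjusted p of 0.587 by edgeR and 0.00422 in the 12-library fit.

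Between glucose and the triose phosphates, 9 of 10 rows had a negative fold change and Hk2 a positive one. Hexokinases trap glucose in the cell as glucose 6-phosphate, and Hk2 is the form that HIF and insulin induce. Hk2 was at 265, 332 and 167 CPM untreated and 279, 390.1 and 278 CPM with rDKK3, lines in the same order, and was higher in each treated sample by 1.05, 1.17 and 1.67-fold. Its untreated and treated ranges overlapped, with a log2 fold change of 0.35 ± 0.16 (SE) and an adjusted p of 0.619 by edgeR. The constitutive Hk1 stood at 259.7, 329 and 273 CPM untreated and 268, 334 and 243 CPM treated, within the spread of the lines. Per kilobase of exon Hk2 made up 38.9%, 38.6% and 27.6% of the 2 hexokinases untreated and 39.3%, 42.2% and 41.7% with rDKK3, with the widest gap in DDKC_9804.

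Gpi1, which interconverts glucose 6-phosphate and fructose 6-phosphate, was at 843, 1178 and 921 CPM untreated and 899, 788 and 469 CPM treated. It was higher with rDKK3 in DDKC_9750 and lower in the other 2 lines, with log2 differences of 0.09, -0.58 and -0.97. Phosphofructokinase commits sugar to glycolysis, and its platelet form Pfkp showed 110.2, 280.3 and 274 CPM untreated and 97.3, 164 and 180.2 CPM treated, lower in each line at a log2 fold change of -0.52 ± 0.15 (SE) and an adjusted p of 0.578 by edgeR. The liver form Pfkl went from 392, 271 and 339 to 446, 244 and 182 CPM, with opposite signs in DDKC_9750 and the other lines. The muscle form Pfkm differed mainly by line, at 66.9, 300.1 and 66.2 CPM untreated and 56.4, 285 and 53.1 CPM treated. Averaged over both conditions, DDKC_9790 held 4.93 times the level of the lowest line (adjusted p for lines 0.00188, edgeR). Per kilobase, Pfkl was 75.0% of the 3 forms in untreated DDKC_9750, 40.3% in DDKC_9790 and 55.4% in DDKC_9804.

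Aldolases split fructose 1,6-bisphosphate, and the brain form Aldoc had one of the largest differences of all members. Aldoc (chr11:78213794-78218607, plus strand on GRCm39) was at 156, 229 and 249 CPM in untreated DDKC_9750, DDKC_9790 and DDKC_9804 and at 98.5, 116 and 67.0 CPM with rDKK3. All 3 treated samples lay below all 3 untreated samples. The untreated level was 1.58, 1.97 and 3.72 times the treated level in the 3 lines, and the log2 fold change was -1.17 ± 0.26 (SE) with an adjusted p of 0.578 by edgeR, 0.0054 by DESeq2 and 0.00109 in the 12-library fit. The main form Aldoa was far more abundant, at 1939, 3389.9 and 1990.2 CPM untreated and 1795, 2194 and 1213 CPM treated, lower in each line at -0.48 ± 0.16 (SE) log2 units. Per kilobase Aldoc was 8.14%, 6.93% and 12.1% of the aldolases untreated and 5.71%, 5.53% and 5.74% with rDKK3, a description with no test. The second Aldoa row (ENSMUSG00000114515, chr7:126399962-126408280, minus strand) lay just upstream of the main one and reached only 0.831, 2.32 and 1.48 CPM untreated and 1.07, 1.35 and 1.15 CPM treated. Tpi1, which equalises the triose phosphates, was at 881, 1477 and 807 CPM untreated and 869, 1039.6 and 430.3 CPM treated, nearly level in DDKC_9750 and lower in the other lines.

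The PFKFB enzymes make and break fructose 2,6-bisphosphate, the strongest activator of phosphofructokinase, and neither member had a negative fold change. Pfkfb4 (chr9:108820846-108861296, plus strand on GRCm39), a HIF target, was at 4.99, 13.1 and 63.9 CPM untreated and 31.0, 17.0 and 108 CPM with rDKK3. It was higher in each treated sample, by 6.12, 1.3 and 1.69-fold, so that most of the difference came from DDKC_9750, and the groups overlapped because DDKC_9804 was high in both conditions. The log2 fold change was 1.21 ± 0.45 (SE), with an adjusted p of 0.584 by edgeR and 0.0167 in the 12-library fit. Pfkfb3, whose product strongly favours synthesis of the activator, was at 61.6, 42.5 and 3.71 CPM untreated and 96.0, 36.1 and 3.37 CPM treated, higher with rDKK3 in DDKC_9750 only and scarce in DDKC_9804 in both conditions. Both differed between lines, Pfkfb3 by 21.2-fold (adjusted p 0.00301) and Pfkfb4 by 6.61-fold (adjusted p 0.0247, edgeR). Untreated, the lines were in opposite order for the pair. Per kilobase Pfkfb4 was 11.7% of the sum in untreated DDKC_9750, 33.4% in DDKC_9790 and 96.6% in DDKC_9804, and 34.5%, 43.5% and 98.1% with rDKK3.

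All 5 enzymes from the triose phosphates to pyruvate were lower with rDKK3 in all 3 lines. Gapdh, the dehydrogenase that yields NADH, was at 1697, 3979 and 1951 CPM untreated and 1547, 2231 and 1222 CPM treated. Pgk1 (chrX:105230706-105247305, plus strand on GRCm39), the first ATP-yielding kinase of the chain, was at 755, 1535 and 668 CPM and 577, 665 and 317 CPM, with untreated levels 1.31, 2.31 and 2.11 times the treated ones. Its highest treated sample, DDKC_9790, was just below its lowest untreated sample, DDKC_9804, so the groups did not overlap. The log2 fold change of Pgk1 was -0.89 ± 0.20 (SE), with an adjusted p of 0.578 by edgeR and 0.00914 by DESeq2. In the 12-library fit of edgeR its adjusted p was 0.145, and 0.00104 with a term for the library number added.

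Pgam1, which moves the phosphate of phosphoglycerate, was at 158, 355 and 151 CPM untreated and 147, 253 and 60.9 CPM treated, with its main difference in DDKC_9804. Eno1, which forms phosphoenolpyruvate, was at 1666, 1682 and 2052 CPM untreated and 1282, 1041 and 948 CPM treated. The treated Eno1 samples all lay below the untreated ones, and the lines differed little (1.1-fold, adjusted p for lines 0.811). Pkm, pyruvate kinase, was the most abundant member at 2886, 4498 and 3142 CPM untreated and 2226, 2943 and 1811 CPM treated, with overlapping groups, a log2 fold change of -0.59 ± 0.14 (SE) and an adjusted p of 0.578 by edgeR against 0.00113 in the 12-library fit.

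Pgk1, Pgam1, Eno1 and Gapdh also stood at different levels in the lower- and higher-numbered libraries of a pair. Mean log2 CPM was higher in the higher-numbered library of a pair by 1.22, 0.99, 0.85 and 0.61, whereas the other 34 rows differed by at most 0.40. Shifts of 0.5 or more were seen in 10.5% of the 38 rows and 5.59% of all genes. In untreated DDKC_9790, for example, Pgk1 was at 800.9 CPM in the lower-numbered library and 1868 CPM in the higher-numbered one. The difference between conditions was nevertheless alike in both series. For Pgk1 the mean over lines was -0.83 log2 units in the lower-numbered and -0.85 in the higher-numbered libraries, and for Eno1 -0.71 and -0.70. Both library pairs gave 36, 37 and 38 of the 38 rows the same direction in DDKC_9750, DDKC_9790 and DDKC_9804. How often all genes agreed in this way is not given here, so these counts do not set the members apart. These genes have processed copies in the genome whose reads the counting could split. Named copies were low, with Eno1b at 0.985 to 2.49 CPM, Pgk1-rs7 at no more than 0.324 CPM and Pgam1-ps2 at no more than 1.85 CPM. Between the libraries of a pair the copies varied. Eno1b, Pgam1-ps2 and Pgam1-ps1 were higher in the higher-numbered library by 1.76, 1.69 and 1.32 log2 units, more than Eno1 and Pgam1, and Aldoart1 by 1.10. The copies of Pgk1 and Gapdh differed by less than those genes, with Pgk1-rs7 at 0.43 and Gapdh-ps15 at 0.04, and Aldoart2 was at -0.09. Gapdhs, a related protein-coding gene and not a processed copy, was at 0.33. What set the shift between series was not tested.

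**Figure D2:**
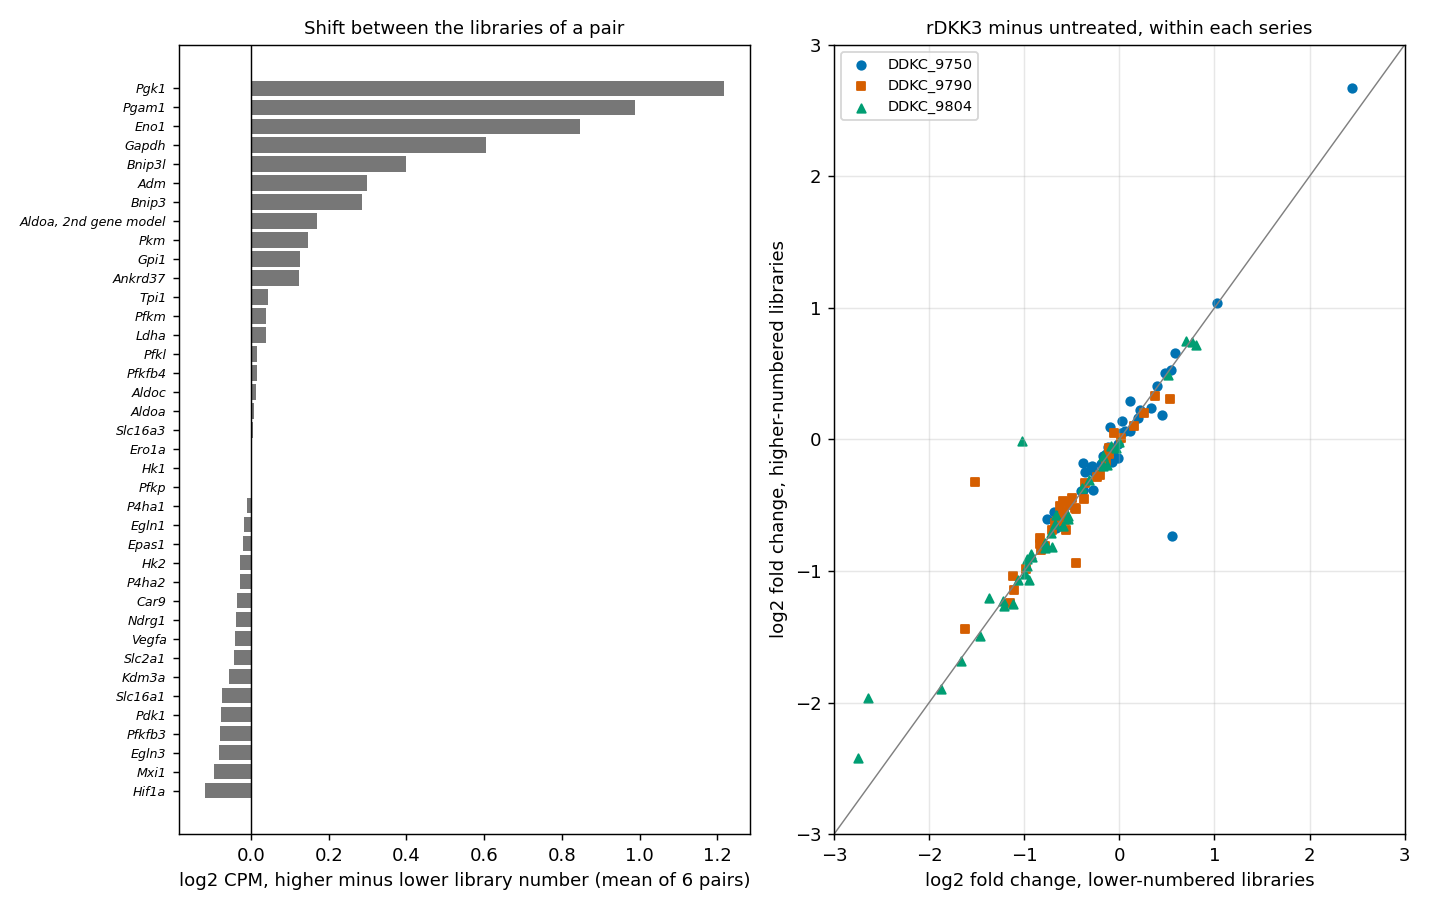
Left, mean log2 CPM of the higher-numbered minus the lower-numbered library over 6 pairs for each of the 38 rows (bars), with Pgk1 (1.22), Pgam1 (0.99), Eno1 (0.85) and Gapdh (0.61) at the top. Right, log2 fold change for rDKK3 in the lower-numbered (x axis) against the higher-numbered libraries (y axis) of each line, 1 point per row and line, with the line of equality in grey; most points lie close to it.

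At the end of the chain, Ldha and Pdk1 were lower with rDKK3 in all 3 lines. Ldha (chr7:46490899-46505051, plus strand on GRCm39), which turns pyruvate into lactate, was at 1669.5, 2379 and 1661 CPM untreated and 1409, 1363 and 711 CPM treated. The treated samples were all below the untreated ones, by 1.19, 1.75 and 2.34-fold, with a log2 fold change of -0.76 ± 0.21 (SE) and an adjusted p of 0.578 by edgeR (0.0759 by DESeq2, 0.00301 in the 12-library fit). Pdk1, the kinase that keeps pyruvate out of the mitochondrial dehydrogenase, was at 184, 239 and 160.1 CPM untreated and 167, 159.6 and 84.1 CPM treated, again with the largest difference in DDKC_9804.

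Lactate leaves cells through monocarboxylate transporters, and the 2 members of this family differed in their spread between lines. The HIF-inducible exporter Slc16a3 (MCT4) was at 79.0, 448 and 71.6 CPM untreated and 81.0, 318 and 31.0 CPM treated, level in DDKC_9750 and lower in the other lines. DDKC_9790 stood far above the rest, and the lines differed 7.99-fold (adjusted p 0.0065, edgeR). Slc16a1 (MCT1) was at 122, 196 and 143 CPM untreated and 163, 164 and 139 CPM treated, with log2 differences of 0.41, -0.26 and -0.04. Per kilobase Slc16a3 was 52.3% of the pair in untreated DDKC_9790, against 23.7% in DDKC_9750 and 19.4% in DDKC_9804, and 48.2%, 19.3% and 9.70% with rDKK3.

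Hif1a was higher with rDKK3 in every line. It encodes the main oxygen-regulated HIF subunit and lies at chr12:73948149-73994304, plus strand on GRCm39. Its level was 187, 491 and 253 CPM in untreated DDKC_9750, DDKC_9790 and DDKC_9804 and 385, 633 and 427 CPM in the treated samples. The treated level was 2.06, 1.29 and 1.69 times the untreated one, but untreated DDKC_9790 was above treated DDKC_9750 and DDKC_9804, so the groups overlapped. The log2 fold change was 0.72 ± 0.16 (SE), with an adjusted p of 0.578 by edgeR, 0.0224 by DESeq2 and 0.0012 in the 12-library fit. The other alpha subunit, Epas1 (HIF2 alpha), was scarce at 23.4, 17.8 and 13.5 CPM untreated and 27.5, 10.3 and 6.57 CPM treated. Per kilobase Hif1a made up 84.9%, 95.1% and 92.9% of the 2 subunits untreated and 90.8%, 97.7% and 97.9% with rDKK3, higher in each line but not tested.

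Prolyl hydroxylases mark HIF alpha for degradation, and the HIF-induced Egln3 (PHD3) had the widest spread of treatment differences between lines apart from Adm, Pfkfb4 and Ankrd37. Egln3 was at 188, 289 and 127 CPM untreated and 221, 179 and 39.9 CPM treated. In DDKC_9750 it was slightly higher with rDKK3 and in DDKC_9804 the untreated level was 3.18 times the treated one. Its log2 fold change was -0.70 ± 0.36 (SE), adjusted p 0.634 by edgeR. Egln1 (PHD2), the main oxygen sensor, was at 165, 171 and 144 CPM untreated and 178, 118 and 82.2 CPM treated, with the same pattern of signs in a narrower range. Per kilobase Egln3 exceeded Egln1 in every sample, at 73.5% to 84.2% of the pair untreated and 60.5% to 82.8% with rDKK3.

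**Figure D3:**
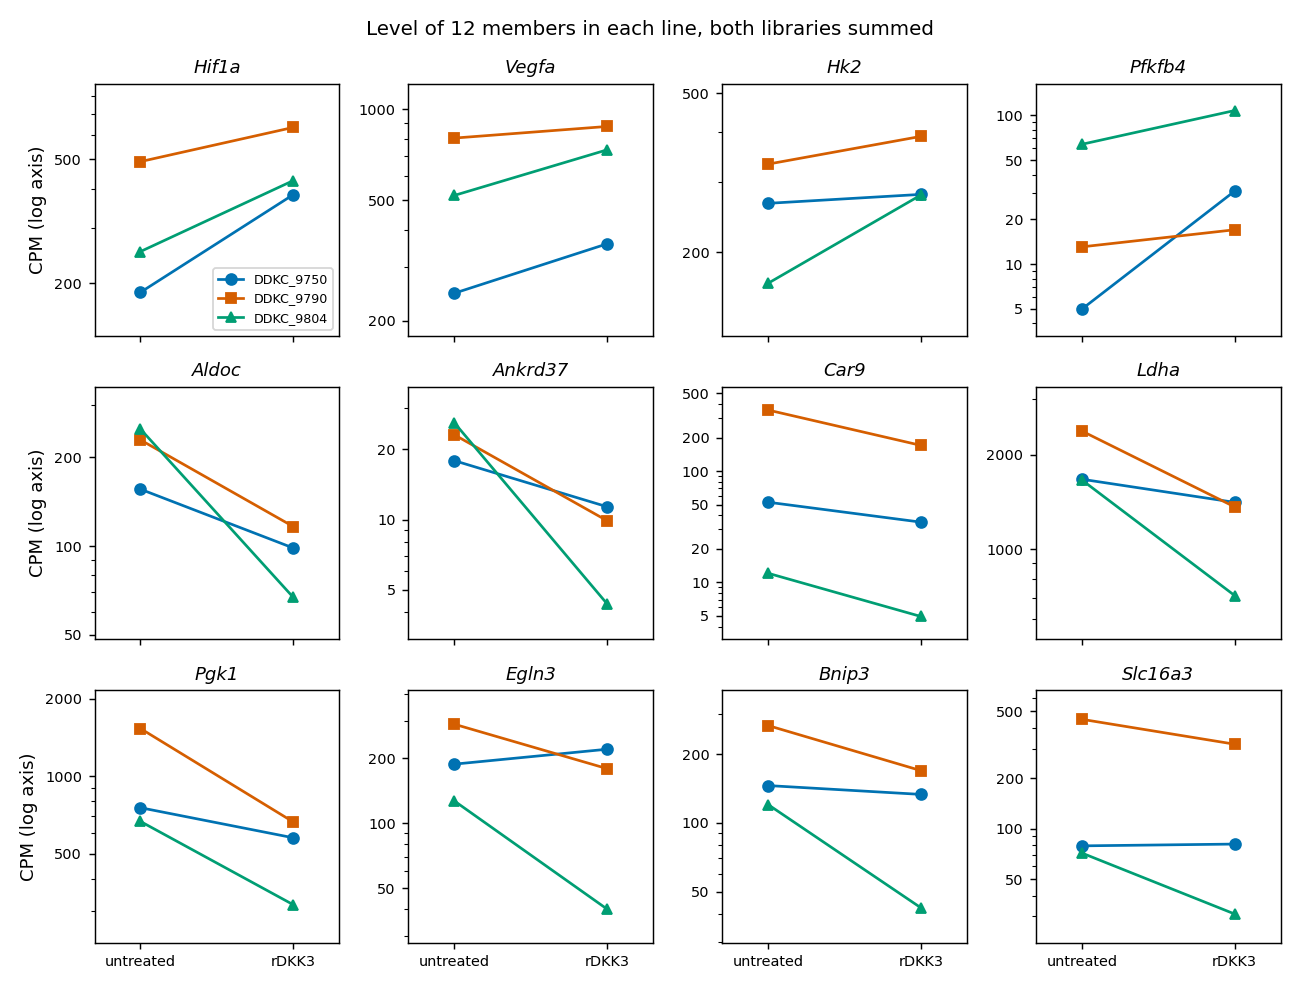
CPM on a log axis (y axis, range set for each gene) of 12 members in untreated and rDKK3-treated samples, with 1 line of symbols per DDKC line and 2 libraries summed per point. Hif1a, Vegfa, Hk2 and Pfkfb4 are higher on the right in all 3 lines, Aldoc, Ankrd37, Car9, Ldha, Pgk1 and Bnip3 are lower in all 3, and Egln3 and Slc16a3 are lower in DDKC_9790 and DDKC_9804.

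Among secreted factors and pH regulators, Vegfa and Car9 had opposite signs in every line. Vegfa, the main angiogenic growth factor, was at 246, 803 and 519 CPM untreated and 359, 877 and 734 CPM treated, a log2 fold change of 0.39 ± 0.14 (SE) with an adjusted p of 0.579 by edgeR. Car9, the cell-surface carbonic anhydrase often used as a hypoxia marker, lies at chr4:43506966-43513729, plus strand on GRCm39 and was at 52.5, 354 and 12.1 CPM untreated and 34.8, 170.3 and 4.93 CPM treated. The untreated level was 1.51, 2.08 and 2.42 times the treated one, a log2 fold change of -0.96 ± 0.16 (SE) with an adjusted p of 0.578 by edgeR, 0.00223 by DESeq2 and 0.000189 in the 12-library fit. Car9 had the widest spread between lines of all members, with DDKC_9790 at 31.5 times the level of DDKC_9804 (adjusted p 0.00145, edgeR), so the groups overlapped although the treated sample of each line was the lower one.

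Adm, which encodes the vasodilator adrenomedullin, was low throughout, at 1.96, 7.70 and 1.03 CPM untreated and 1.55, 2.60 and 0.0821 CPM treated. In DDKC_9804 it had 36 counts untreated and 1 count with rDKK3, a scaled ratio of 0.0800 with a 95% interval of 0.00197 to 0.475 from counting error only, and the treated value is under the floor. Its fitted log2 fold change of -1.38 ± 0.52 (SE) takes in that sample, and how far it depends on the prior count was not tested. In DDKC_9750 the lower- and higher-numbered library pairs had opposite signs, at 0.56 and -0.74 log2 units.

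Both mitophagy receptors were lower with rDKK3 in each line. Bnip3, which recruits mitochondria for removal under hypoxia, was at 146, 267 and 120.4 CPM untreated and 133, 169.6 and 42.5 CPM treated, with untreated levels 1.09, 1.58 and 2.83 times the treated ones and an adjusted p of 0.58 by edgeR. Its relative Bnip3l (Nix) was at 216, 225 and 177 CPM untreated and 185, 155 and 101 CPM treated. In both genes the difference was smallest in DDKC_9750 and largest in DDKC_9804.

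Of the enzymes that hydroxylate and fold secreted proteins, P4ha1 alone was lower in all 3 lines. P4ha1, a catalytic subunit of collagen prolyl 4-hydroxylase, was at 197, 317 and 268 CPM untreated and 163, 251 and 171 CPM treated, a log2 fold change of -0.42 ± 0.13 (SE) (adjusted p 0.578, edgeR). The second subunit gene P4ha2 was at 61.1, 108 and 89.0 CPM and 86.7, 75.8 and 68.7 CPM, higher with rDKK3 in DDKC_9750 and lower in the others. Ero1a, the oxidase that renews disulfide bond formation in the endoplasmic reticulum, was at 111, 641 and 154 CPM and 136, 360.3 and 153 CPM. DDKC_9790 was high in Ero1a in both conditions and had the one wide gap between conditions.

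The remaining HIF targets were led by Ankrd37, an ankyrin-repeat protein gene at chr8:46449939-46458744, minus strand on GRCm39. It was at 17.9, 23.1 and 26.1 CPM untreated and 11.4, 9.90 and 4.35 CPM treated. All treated samples were below all untreated ones, and the untreated levels of the lines lay close together. Untreated levels were 1.57, 2.33 and 5.89 times the treated ones, with a log2 fold change of -1.45 ± 0.39 (SE), the most negative of the members, and an adjusted p of 0.578 by edgeR (0.0527 by DESeq2, 0.00325 in the 12-library fit). Mxi1, an antagonist of Myc, was at 110.2, 210.2 and 91.7 CPM and 87.6, 196 and 62.1 CPM and was lower in each line. Ndrg1, a stress-responsive gene, was at 286, 325 and 92.6 CPM and 272, 220.2 and 88.9 CPM, with its one larger difference in DDKC_9790. Kdm3a, a histone H3 lysine demethylase, was at 136, 90.5 and 90.8 CPM and 129, 92.2 and 60.6 CPM, level in DDKC_9750 and DDKC_9790 and lower in DDKC_9804.

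With the average difference for rDKK3 taken out, levels differed between lines in 18 of the 38 rows (47.4%), where 35.3% of all genes were called (edgeR's quasi-likelihood F test, adjusted p 0.00145 to 0.0492). With the 12 libraries as separate samples 33 rows (86.8%) and 77.7% of all genes were called. The widest ranges between line means were 31.5-fold for Car9, 21.2-fold for Pfkfb3, 10.3-fold for Adm, 7.99-fold for Slc16a3, 6.61-fold for Pfkfb4 and 4.93-fold for Pfkm. DDKC_9790 was the highest line for Car9, Adm, Slc16a3 and Pfkm, DDKC_9750 for Pfkfb3 and DDKC_9804 for Pfkfb4. Ankrd37 and Aldoc, both much lower with rDKK3 in these samples, were near the other end, with ranges of 1.41-fold and 1.32-fold and adjusted p-values for lines of 0.774 and 0.531.

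**Figure D4:**
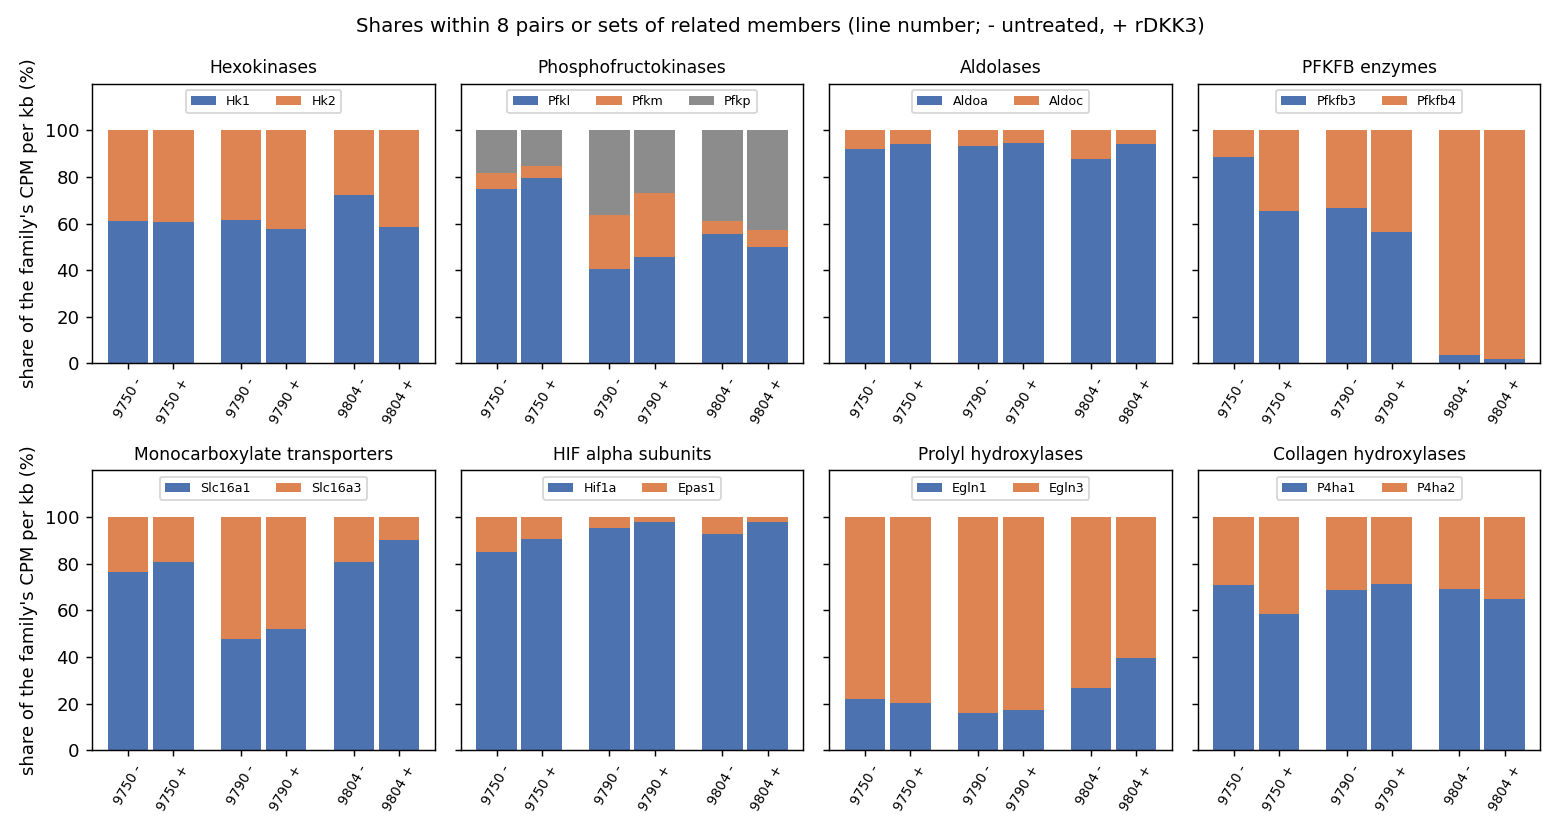
Share of each member (y axis, %) in the summed CPM per kilobase of exon of its enzyme or subunit family, for each line untreated (-) and with rDKK3 (+), 1 summed sample per bar. Pfkfb4 makes up 96.6% and 98.1% of its pair in DDKC_9804 and 11.7% and 34.5% in DDKC_9750, and Slc16a3 about equals Slc16a1 only in DDKC_9790.

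Further genes of the pathways had medians near that of all genes. Of 45 other glycolysis and pyruvate genes, 41 were tested, and their median difference was -0.04 log2 units, or -0.24 without DDKC_9750. edgeR called 0 of the 41 on the summed samples. DESeq2 called 0 of the 35 it covered, beside 0.527% lower and 0.232% higher of the genes it adjusted. At an unadjusted p under 0.05, 4 were lower (9.76%) and 1 higher (2.44%), beside 5.16% and 3.38% of all genes. The 12-library fit called 8 lower (19.5%) and 5 higher (12.2%), beside 10.1% and 7.95%. Among those with 1 direction in all lines, the largest differences were in Eno3 (the muscle enolase, 67.0, 46.4 and 85.1 CPM untreated and 36.4, 35.6 and 54.9 CPM treated), Bpgm (bisphosphoglycerate mutase, log2 fold change -0.58 ± 0.13 (SE)), Pdk4 (-0.57 ± 0.26 (SE)) and the pyruvate dehydrogenase phosphatase Pdp1 (-0.52 ± 0.17 (SE)). Each of the 4 was lower with rDKK3.

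Of 52 other HIF pathway and hypoxia genes, 49 were tested, with a median of -0.06, which was 0.03 without DDKC_9790 and -0.15 without DDKC_9750. edgeR called 0 of them on the summed samples. DESeq2 covered 48 of them and called 1 (Stc1, lower), beside 0.527% lower and 0.232% higher of the genes it adjusted. At an unadjusted p under 0.05, 7 were lower (14.3%) and 3 higher (6.12%), beside 5.16% and 3.38% of all genes. The 12-library fit called 10 lower (20.4%) and 4 higher (8.16%), beside 10.1% and 7.95%, so that the share higher was near that of all genes. Stc1, a secreted glycoprotein hormone induced by hypoxia, was at 42.6, 13.6 and 41.2 CPM untreated and 31.7, 3.14 and 6.16 CPM treated, below its partner in each line. Angptl4, an inhibitor of lipoprotein lipase, was higher with rDKK3 in each line, at 18.8, 46.0 and 2.31 CPM and 39.8, 59.0 and 8.46 CPM. The transferrin receptor gene Tfrc (297, 30.4 and 65.2 CPM untreated, 237, 19.1 and 24.4 CPM treated) and the lysyl oxidase relative Loxl4 (21.0, 70.6 and 63.0 CPM untreated, 8.45, 48.1 and 48.3 CPM treated) were lower in all 3 lines. Adjusted p-values of these 8 genes ran from 0.578 to 0.615 by edgeR.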

How the data were processed

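RNA of untreated and rDKK3-treated DDKC cells was sequenced as 50-base read pairs. The authors mapped reads to GRCm39 with STAR 2.7.9a, counted them strand-specifically on GENCODE M32 basic genes and deposited raw counts. The submitters' notes also list Picard 2.19.2, DESeq2 1.38.0 and R 4.2.2. Here 92 spike-in rows (0 counts) were left out, library pairs were summed, and filterByExpr kept 15165 of 29823 genes with counts. Treatment was tested with edgeR 4.0.16 in R 4.3.3 (quasi-likelihood, TMM, Benjamini-Hochberg over all tested genes, threshold 0.05), with line as block. Pairing comes from the shared cell line, and same-line samples deviated together (correlations 0.822, 0.874 and 0.805). Tests within lines used 12 libraries and the library number series. Log2 CPM used a prior count of 2, and lengths were exon unions. The SE of a log2 fold change is its absolute value divided by the square root of edgeR's F statistic. Alternatives were DESeq2 1.42.0, RLE scaling, no filter, no block, separate libraries, thinning and left-out lines or libraries. A permutation within 3 pairs cannot give a two-sided p below 0.25. Members and lists were chosen with earlier results of these data known. The naming rule took members called with 6 or 12 samples, the 8 largest differences and the 6 widest line ranges, and the other members were added. Of the other pathway genes it took up to 4 per list with the largest difference among those with 1 direction in all lines and at least 1 CPM. One further allele of the mice is not reported here.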

Additional observations from a re-analysis of the deposited data

Results flagged for a closer look

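For 8 of the 38 rows (21.1%) at least 1 line was higher and at least 1 lower with rDKK3 in both library pairs, with the lines of each sign passing the test against their own library noise (edgeR, adjusted p under 0.05). Of all genes 20% met the same rule, so the count does not set the members apart. In each of the 8, DDKC_9750 was the higher line and DDKC_9790 a lower one. The difference between the lines was not tested for any of them. The gap between the largest and the smallest log2 fold change among the lines was 1.90 for Egln3, 1.12 for Ero1a, 1.08 for Pfkl, 1.07 for Gpi1 and 1.01 for P4ha2. It was 0.915 for Egln1, 0.876 for Pfkfb3 and 0.667 for Slc16a1. DDKC_9804 was also lower and passed that test for Gpi1, Pfkl, Egln1, Egln3 and P4ha2. For Pfkfb3, Slc16a1 and Ero1a both pairs of DDKC_9804 were also lower but did not pass it. Signs also parted between lines, with agreeing pairs but without passing that test in lines of both signs, for Epas1 (log2 fold changes of 0.23, -0.78 and -1.03 in DDKC_9750, DDKC_9790 and DDKC_9804), Hk1 (0.05, 0.02 and -0.17) and the low Aldoa row (0.33, -0.74 and -0.34).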

How the results depend on the processing

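The members' median difference stayed negative under every alternative run, with 30 to 34 of the 38 rows lower. The number of genes called for rDKK3 was 1, and it was 2744 with 12 libraries as separate samples, 3124 with the library number series added, 95 with DESeq2, 90 with no filter on low counts, 0 to 2 with a line left out and 1 to 6 with 1 library of each pair left out. With no replicate block, that is without pairing by line, it was 0. Members called, of 38, rose from 0 to 23, 27, 6 and 4 under the first 4 of these settings and stayed at 0 under the rest. Calls over all genes rose in the same 4 settings. The 12-library fits tested 15165 genes, DESeq2 adjusted 12519 and the fit with no filter tested 29823. The count of members that differed between lines rose from 18 to 33 (86.8%) with 12 libraries, a fit that called 77.7% of all genes. Members lower within DDKC_9750 went from 19 to 11 (28.9%) with no library number series, where 17.9% of all genes were called lower. The median of the other glycolysis genes lay between -0.24 (without DDKC_9750) and -0.012 with a line or 1 library of each pair left out. Pfkfb3, at 0.11 over 3 lines, ranged from -0.20 (without DDKC_9750) to 0.31 (without DDKC_9790). The cause of these changes was not tested. The 12-library fits counted the library pairs as replicates and so held more samples. Depth limits Adm, which fell to 1 count in treated DDKC_9804, under the floor of 3 counts. It also limits the low Aldoa row, which had 11 to 54 counts in the summed samples.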
